A study of Mus musculus with 6 samples.

Results

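Ion channels set the membrane potential of a cell and let calcium, sodium, potassium and chloride cross its membranes. In skeletal muscle, voltage-gated sodium channels carry the action potential, potassium and chloride channels bring the membrane back to rest, and inward rectifier potassium channels hyperpolarize myoblasts before they fuse. TRP and Piezo channels admit cations, the Piezo channels when the membrane is stretched, and anoctamins are either calcium-activated chloride channels or lipid scramblases. The channel genes of cultured muscle stem cells (MuSCs) were examined here. They were chosen by symbol alone, as all rows of the expression table whose symbol begins with Kcn, Clcn, Trpc, Trpm, Trpv, Piezo, Scn, Hcn or Ano, the last 3 followed by a number and the Trp names likewise. Of the 18943 genes in the table, 92 met this rule, and 91 of them are protein coding. They fall into 14 subfamilies, apart from 4 symbols that name no channel: Kcnq1ot1, an RNA antisense to Kcnq1, and Trpc4ap, Trpc5os and Kcnrg.

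The RNA-seq data comprised 6 libraries from MuSCs sorted by FACS from 8-week-old wild-type C57BL/6 mice. The cells were cultured for 5 days with DMSO, with 100 nM endothelin-3 (ET-3) or with 100 nM neurotensin (NT), with 2 libraries in each group. DMSO is the solvent and served as the control, and both peptides bind G protein-coupled receptors. The doses are those of the labels, and the study's methods give other ones. The comparisons ask how the 2 ligands change the transcripts of MuSCs in culture. Markers of the MuSC lineage differed in level. Pax7, the transcription factor of satellite cells, had values of 857 and 1070 in DMSO, 1754 and 1730 under ET-3, and 1653 and 1599 under NT. Myog, a transcription factor of differentiating myoblasts, had values of 1157 and 1335 in DMSO and of 28 to 38 in the 4 treated libraries. Myf5, a myogenic determination factor, was at 400 to 506 in every library. Cd34, a surface marker of quiescent MuSCs, had values of 5 and 1 in DMSO and 264 to 330 in the treated libraries, and Calcr, another such marker, had at most 3 in any library.

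Each value is a read count that was scaled by 1 factor per library and rounded, and a library held 4214458 to 4600575 in total. The paired libraries of a treated group were as close as sampling of reads allows. Their mean chi-square over genes was 0.895 for ET-3 and 0.961 for NT, against 1.43 for DMSO. The design text describes triplicates, whereas 2 libraries a group were analysed here. The labels do not say whether libraries of a group came from separate cultures, so the p-values measure only the spread between these libraries, which may be technical. Counts of calls are therefore also given with each treated pair averaged into 1 sample. In such bulk data, fewer cells of a type and less RNA per cell cannot be told apart.

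Channel transcripts together made up a smaller share of the treated libraries, and several genes that fell had close relatives that rose or changed little. The 92 genes held 0.407% to 0.411% of a library in DMSO, 0.341% in both ET-3 libraries and 0.346% to 0.350% under NT. Between 3 and 9 of them were listed at 0 in a DMSO library, against 19 to 24 under ET-3 and 12 to 14 under NT. Of all 18943 genes, 17642 to 17678 were above 0 in a DMSO library, 17057 to 17189 under ET-3 and 17339 to 17457 under NT. Reads on genes differed too, at 4015164 to 4570874 in DMSO, 3628952 to 3931934 under ET-3 and 4986598 to 5396233 under NT. A mean value of at least 5 over the 6 libraries was required for a test, which 57 channel genes (62.0%) and 73.5% of all genes passed. A gene was called when its adjusted p in limma with Benjamini-Hochberg correction was at most 0.05 and its fold change at least 2. Under ET-3, 8 channel genes were higher and 22 lower than in DMSO, where 6.62% and 14.9% of all 13921 tested genes were called in these directions. Under NT, 10 were higher and 21 lower, where 7.3% and 13.2% of all tested genes were called. By the adjusted p alone, 12 were higher and 30 lower under ET-3 (30.6% and 33.2% of all tested genes), and 13 were higher and 32 lower under NT (29.7% and 32.5%). The median log2 fold change of the tested channel genes was −0.60 under ET-3 and −0.32 under NT, and that of all tested genes was −0.01 in both comparisons. With each treated pair counted as 1 sample, 6 were higher and 21 lower under ET-3, where 3.33% and 11.9% of all tested genes were called, and 6 were higher and 19 lower under NT, where 3.4% and 10.4% were. The calls that ended this way were those of Ano3, Kcnh1 and Kcnj4 under ET-3 (limma adjusted p of 0.0656, 0.0762 and 0.172, Benjamini-Hochberg correction), and of Trpv4, Kcnab3, Kcnq5, Kcnh5, Kcnj4 and Kcnh1 under NT (0.0522, 0.0579, 0.0750, 0.0887, 0.126 and 0.130). Both comparisons rest on the same DMSO libraries, so their values are given side by side and are not independent.

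**Figure D1:**
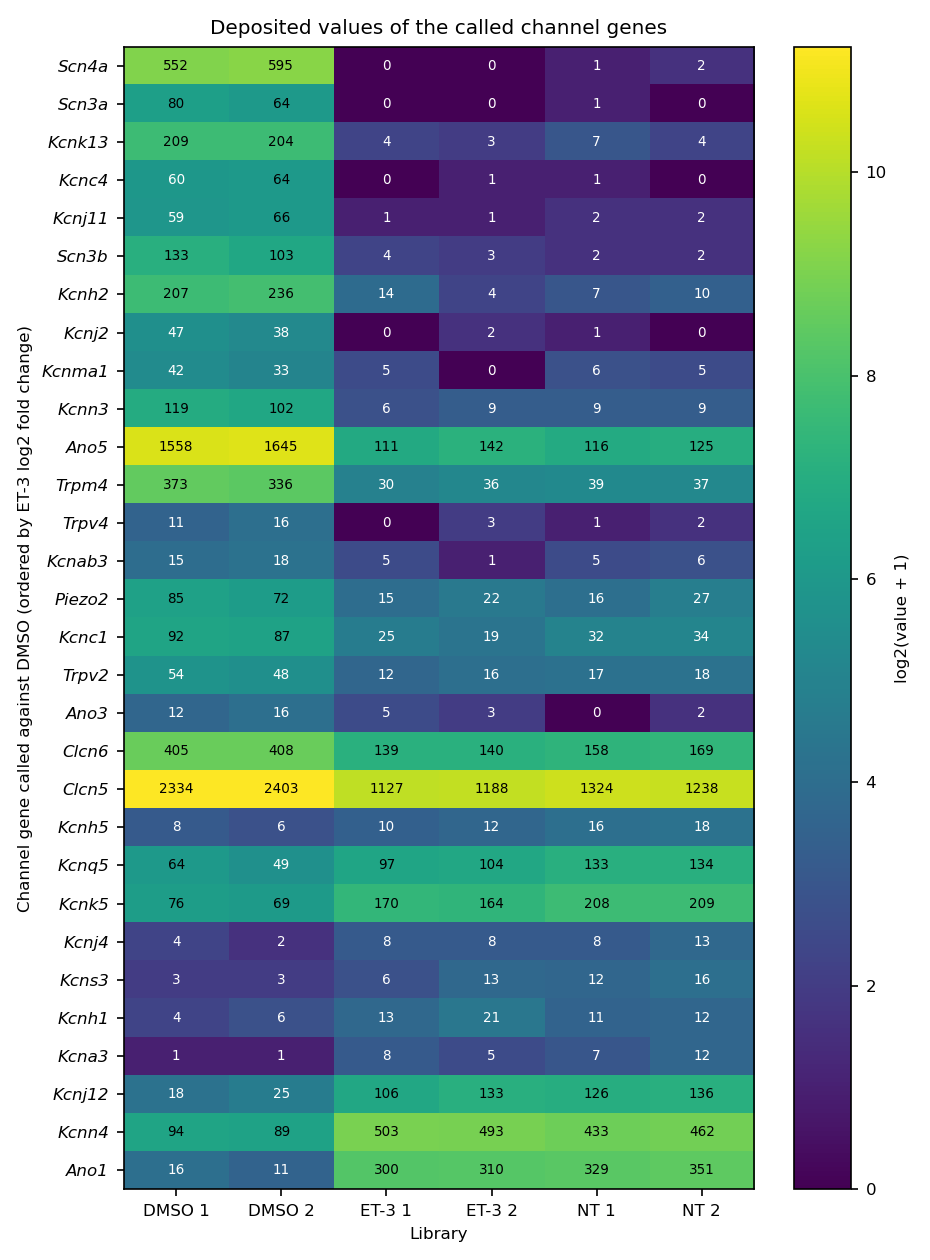
Heat map of the deposited values of 30 channel genes called under ET-3 or NT against DMSO, 1 row per gene and 1 column per library. Color is log2(value + 1) and the printed number is the value itself, so that Scn4a reads 552 and 595 in DMSO and 0 to 2 in the treated libraries, while Ano1 reads 16 and 11 in DMSO and 300 to 351 in the treated libraries.

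Among sodium channel α subunits, the adult skeletal muscle form fell to near 0. Scn4a, which encodes the α subunit that carries the action potential of mature muscle fibers, lies on chromosome 11 (GRCm38, chr11:106318592-106353288, minus strand). It had values of 552 and 595 in DMSO, 0 and 0 under ET-3, and 1 and 2 under NT. Its treated values were all at or below 2, far under both DMSO values. Against a floor of 3 reads per library, Scn4a was at least 160-fold lower under ET-3. It was 382-fold lower under NT, with a 95% counting interval of 136 to 1288, and limma with Benjamini-Hochberg correction gave adjusted p of 1.49e-08 for ET-3 and 4.53e-08 for NT. Scn3a, which encodes an embryonic neuronal α subunit, had values of 80 and 64 in DMSO and 0, 0, 1 and 0 in the treated libraries, at least 20.1-fold lower under ET-3. The share of Scn4a in the summed per-kilobase level of the α subunit genes was 32.7% and 36.0% in DMSO and at most 0.120% in a treated library.

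Scn3b, for an auxiliary β subunit that tunes the gating of the α subunits, had values of 133 and 103 in DMSO, 4 and 3 under ET-3, and 2 and 2 under NT, and was 33.7-fold and 59.0-fold lower. Its log2 fold changes were −4.72 ± 0.33 and −5.30 ± 0.33 (SE), with limma adjusted p of 1.05e-06 and 5.14e-07 after Benjamini-Hochberg correction. No treated value of Scn3b came near the lower DMSO value.

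Among the inward rectifiers, relatives moved in opposite directions. Kcnj2 and Kcnj12 encode Kir2.1 and Kir2.2, strong inward rectifiers that hold the resting potential and can assemble with each other. Kcnj2 (GRCm38, chr11:111066164-111076821, plus strand) had values of 47 and 38 in DMSO, 0 and 2 under ET-3, and 1 and 0 under NT. It was 42.5-fold lower under ET-3, with a counting interval of 10.04 to 315, and its log2 fold changes were −4.64 ± 0.59 and −4.94 ± 0.59. Kcnj12 (chr11:61022564-61071131, plus strand) had values of 18 and 25 in DMSO, 106 and 133 under ET-3, and 126 and 136 under NT. The 5.56-fold and 6.09-fold increases had adjusted p of 2.34e-06 and 1.70e-06 in limma with Benjamini-Hochberg correction. Kcnj11 encodes Kir6.2, the pore of ATP-sensitive potassium channels. It had values of 59 and 66 in DMSO, 1 and 1 under ET-3, and 2 and 2 under NT, at log2 fold changes of −4.99 ± 0.37 and −4.40 ± 0.37. Abcc9 encodes the sulfonylurea receptor SUR2 that assembles with Kir6.2 in muscle, and its values were 851 and 835 in DMSO and 4, 1, 3 and 0 in the treated libraries. Abcc8, which encodes the other such receptor, SUR1, had values of 35 and 25 in DMSO and 6 to 12 in the treated libraries. The share of Kcnj12 in the summed per-kilobase level of the inward rectifiers was 18.2% and 24.1% in DMSO and 86.1% to 90.2% in the treated libraries. Kcnj4, for the related Kir2.3, was called higher at low values, 4 and 2 in DMSO against 8 and 8 under ET-3 and 8 and 13 under NT. Its ET-3 call ended without the second DMSO library or either ET-3 library (limma adjusted p of 0.0911 to 0.113, Benjamini-Hochberg correction), and its NT call without the second DMSO or the second NT library (0.0572 and 0.0913).

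Promoter windows of 300 bases around the annotated start are shown for Kcnj2, Kcnj12, Ano5 and Ano1, relatives that moved in opposite directions, because Myog and other myogenic differentiation genes fell in the same libraries. The sequences are from RefSeq on GRCm38.p6, read 5′ to 3′ on the strand of the gene, at chr11:111065914-111066213 for Kcnj2, chr11:61065554-61065853 for Kcnj12, chr7:51510779-51511078 for Ano5 and chr7:144738524-144738823 for Ano1. Capitals mark CAGCTG, which reads alike on both strands, and CAGGTG on either strand (CACCTG on the strand shown), the E-box forms that myogenic bHLH factors bind. For Kcnj12 and Ano1 the RefSeq start lies inside the gene span of the expression table.
Kcnj2: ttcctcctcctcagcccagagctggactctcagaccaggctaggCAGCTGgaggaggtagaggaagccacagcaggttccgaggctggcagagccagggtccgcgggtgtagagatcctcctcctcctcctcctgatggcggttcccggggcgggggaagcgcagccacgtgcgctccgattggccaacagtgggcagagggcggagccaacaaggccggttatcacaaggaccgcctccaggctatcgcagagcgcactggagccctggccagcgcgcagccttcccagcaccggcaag
Kcnj12: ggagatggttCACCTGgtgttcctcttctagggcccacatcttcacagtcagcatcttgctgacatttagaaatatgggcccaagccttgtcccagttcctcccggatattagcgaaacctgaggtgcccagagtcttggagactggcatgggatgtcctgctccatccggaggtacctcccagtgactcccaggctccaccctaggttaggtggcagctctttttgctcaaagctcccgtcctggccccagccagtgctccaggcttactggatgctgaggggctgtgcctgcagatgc
Ano5: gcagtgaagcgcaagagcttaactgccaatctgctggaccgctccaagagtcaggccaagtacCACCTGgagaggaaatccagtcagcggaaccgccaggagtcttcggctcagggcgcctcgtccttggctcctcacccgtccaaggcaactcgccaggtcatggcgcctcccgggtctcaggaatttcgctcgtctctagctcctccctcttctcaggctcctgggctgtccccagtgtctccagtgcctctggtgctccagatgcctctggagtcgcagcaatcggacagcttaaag
Ano1: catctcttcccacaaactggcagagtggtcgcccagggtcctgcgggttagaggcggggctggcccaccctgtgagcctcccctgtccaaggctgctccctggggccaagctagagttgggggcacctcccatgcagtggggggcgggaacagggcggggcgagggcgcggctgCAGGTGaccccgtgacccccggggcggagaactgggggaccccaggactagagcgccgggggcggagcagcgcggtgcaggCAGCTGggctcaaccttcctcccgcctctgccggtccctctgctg

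The marked words were in windows of genes of both directions. Of the 92 channel genes, 69 had at least 1 window in the RefSeq table. Of the channel genes called lower with a ligand, 14 of 22 had a window, and 8 of these genes held either word. All 10 genes called higher had a window, and 3 held either word. Of all 69 channel genes with a window, 34 held either word, as did 35.9% of all genes with a window. Counted over windows rather than genes, either word was in 11 of 18 windows of the genes called lower and in 3 of 12 windows of those called higher. It was in 42 of 96 windows of all channel genes, and in 32.9% of all 32851 windows. A match is a description of the letters and not evidence of binding.

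A pair of anoctamins also moved in opposite directions. Ano5, an anoctamin of muscle that is mutated in limb-girdle muscular dystrophy and acts in membrane repair, lies on chr7:51511029-51598709 (GRCm38, plus strand). Its values were 1558 and 1645 in DMSO, 111 and 142 under ET-3, and 116 and 125 under NT. It was 12.7-fold lower under ET-3 and 13.3-fold lower under NT, with limma adjusted p of 2.97e-09 and 3.70e-09 after Benjamini-Hochberg correction. Ano1, a calcium-activated chloride channel of epithelia, smooth muscle and pacemaker cells of the gut, lies on chr7:144588549-144751974 (minus strand). It had values of 16 and 11 in DMSO, 300 and 310 under ET-3, and 329 and 351 under NT, and was 22.6-fold and 25.2-fold higher, with adjusted p of 9.86e-09 and 9.20e-09 in limma with Benjamini-Hochberg correction. This was the largest increase among the 57 tested channel genes in both comparisons. Per exonic kilobase, the Ano1 level went from 2.16 in DMSO to 48.8 under ET-3 and 54.5 under NT, and the Ano5 level from 205 to 16.2 and 15.4, so that Ano1 lay under Ano5 in DMSO and above it in every treated library. Ano10 passed the adjusted p alone, at log2 fold changes of −0.88 and −0.72. Ano6, a lipid scramblase, had values of 1037 and 953 in DMSO and 851 to 872 in the treated libraries, at log2 fold changes of −0.22 and −0.19. Ano8, which tethers the endoplasmic reticulum to the plasma membrane, did not pass, and its 95% intervals of log2 fold change were −0.27 to 0.05 under ET-3 and −0.23 to 0.08 under NT. The summed anoctamin level per kilobase was 408 in DMSO, 224 under ET-3 and 234 under NT.

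**Figure D2:**
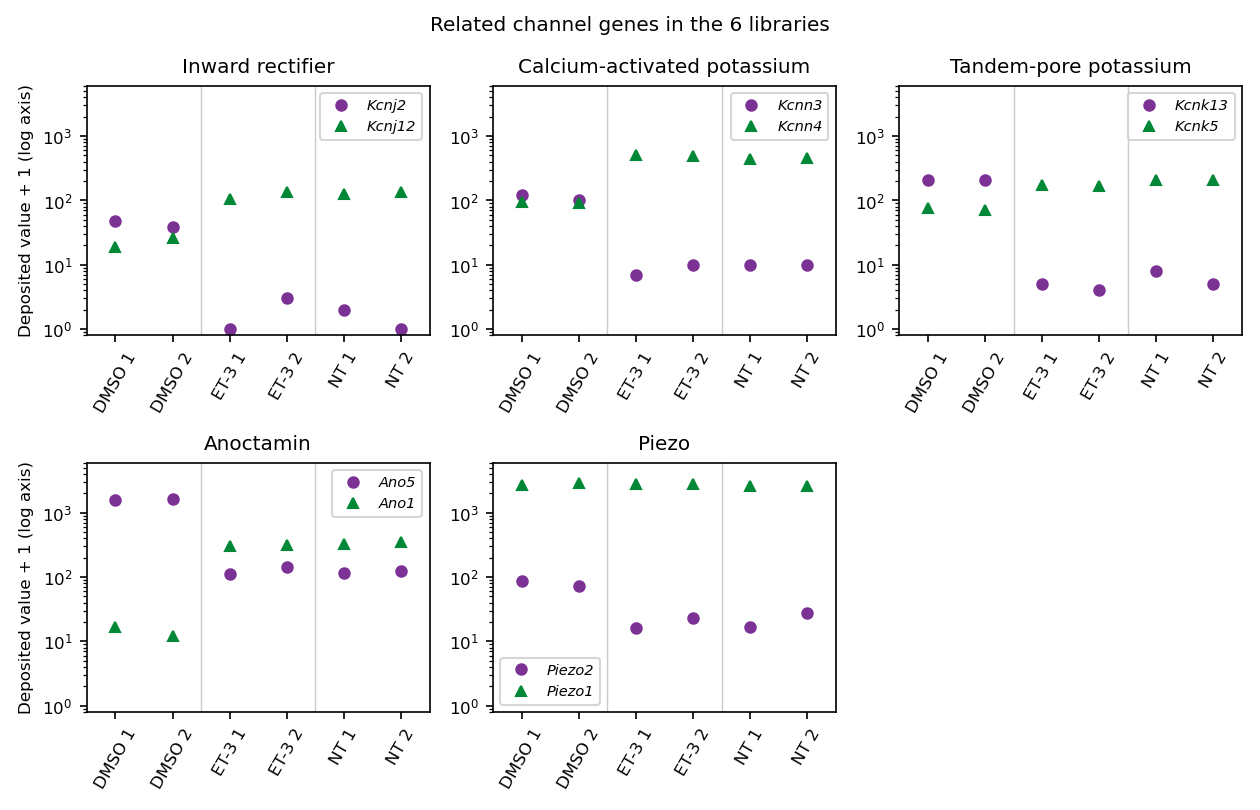
Values plus 1 on a log axis for 5 pairs of related channel genes in the 6 libraries, with circles for the relative that fell and triangles for the other one. Kcnj2, Kcnn3, Kcnk13, Ano5 and Piezo2 were lower in all 4 treated libraries than in both DMSO libraries, while Kcnj12, Kcnn4, Kcnk5 and Ano1 were higher, and Piezo1 lay between 2563 and 2859 throughout.

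Among calcium-activated potassium channels, one gene rose and others fell. Kcnn4 encodes the intermediate-conductance channel KCa3.1, known from lymphocytes, red cells and proliferating cells. Its values were 94 and 89 in DMSO, 503 and 493 under ET-3, and 433 and 462 under NT. It was 5.44-fold and 4.89-fold higher, with limma adjusted p of 2.75e-09 and 4.35e-09 after Benjamini-Hochberg correction. Kcnn3, for the small-conductance channel SK3 of immature and denervated muscle, had values of 119 and 102 in DMSO, 6 and 9 under ET-3, and 9 and 9 under NT, and was 14.7-fold and 12.3-fold lower. The share of Kcnn4 in the per-kilobase sum of its subfamily was 47.7% and 49.1% in DMSO and 93.1% to 95.3% in the treated libraries, and the sum itself rose from 37.0 to 102 under ET-3 and 93.7 under NT. Kcnma1, the large-conductance BK channel, had values of 42 and 33 in DMSO, 5 and 0 under ET-3, and 6 and 5 under NT. Its log2 fold changes were −3.96 ± 0.69 and −2.56 ± 0.69. All of its treated values were below the DMSO values, but the call under ET-3 ended without the first DMSO library (limma adjusted p = 0.0581 after Benjamini-Hochberg correction), and the call under NT ended when any 1 of the DMSO or NT libraries was left out (0.0650 to 0.160).

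Among tandem-pore potassium channels, which give background potassium leak, Kcnk13 fell and Kcnk5 rose. Kcnk13, for the halothane-inhibited channel THIK1, had values of 209 and 204 in DMSO, 4 and 3 under ET-3, and 7 and 4 under NT. It was 59.0-fold and 37.5-fold lower, with counting intervals of 27.5 to 166 and 22.5 to 73.8. Kcnk5, for the acid-sensitive channel TASK2 that also acts in volume regulation, had values of 76 and 69 in DMSO, 170 and 164 under ET-3, and 208 and 209 under NT. The libraries of the groups did not overlap for either gene, and the 2.30-fold and 2.88-fold increases of Kcnk5 had limma adjusted p of 3.42e-06 and 6.94e-07 after Benjamini-Hochberg correction. Kcnk2 encodes the stretch-sensitive channel TREK1, and had values of 68 and 39 in DMSO and 67 to 81 in the treated libraries. It did not pass the test, with 95% intervals of log2 fold change of −0.10 to 0.96 under ET-3 and 0.02 to 1.08 under NT.

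The voltage-gated potassium channels were divided between genes that were nearly lost, genes that rose from low values and genes that changed little. Kcnh2, for the ERG channel whose current repolarizes the heart, had values of 207 and 236 in DMSO, 14 and 4 under ET-3, and 7 and 10 under NT. Kcnc4, for the rapidly inactivating Kv3.4 of skeletal muscle, had values of 60 and 64 in DMSO and 0, 1, 1 and 0 in the treated libraries. No treated value of Kcnh2 or Kcnc4 was above 14. Their log2 fold changes were −4.68 ± 0.44 and −4.56 ± 0.44 for Kcnh2 and −5.48 ± 0.52 in both comparisons for Kcnc4, with adjusted p of at most 1.06e-05 in limma with Benjamini-Hochberg correction. Kcnc1, for the fast delayed rectifier Kv3.1, fell less, from 92 and 87 in DMSO to 25 and 19 under ET-3 and 32 and 34 under NT. Kcnab3, for a cytoplasmic β subunit, had values of 15 and 18 in DMSO and 1 to 6 in the treated libraries. It was called in both comparisons, but leaving out either DMSO library ended both calls, with limma adjusted p of 0.0548 and 0.0701 for ET-3 and 0.152 and 0.211 for NT after Benjamini-Hochberg correction, and leaving out either NT library ended the call under NT (0.163 and 0.114).

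Of the voltage-gated potassium channel genes called higher, Kcnq5 was the most abundant per exonic kilobase. It encodes Kv7.5, a subunit of the muscarine-sensitive M-current, and had values of 64 and 49 in DMSO, 97 and 104 under ET-3, and 133 and 134 under NT. All treated values lay above the DMSO values, and on the log2 scale Kcnq5 was higher by 0.83 ± 0.15 for ET-3, below the fold threshold, and by 1.24 ± 0.15 for NT, with limma adjusted p of 7.63e-04 and 5.28e-05 after Benjamini-Hochberg correction. Without the first DMSO library the ET-3 value was 1.02 and called, and with each treated pair averaged the NT call ended (adjusted p = 0.0750). Kcna3, for the lymphocyte channel Kv1.3, had values of 1 and 1 in DMSO, 8 and 5 under ET-3, and 7 and 12 under NT. Kcns3, for a silent modifier subunit, had values of 3 and 3 in DMSO, 6 and 13 under ET-3, and 12 and 16 under NT. Neither gene overlapped between the DMSO and the treated libraries. Kcnh1 encodes the ether-à-go-go channel of neurons and of myoblasts nearing fusion, and had values of 4 and 6 in DMSO, 13 and 21 under ET-3, and 11 and 12 under NT. Kcnh5, for its near relative, had values of 8 and 6 in DMSO, 10 and 12 under ET-3, and 16 and 18 under NT. It was called under NT, while its ET-3 log2 fold change of 0.59 ± 0.33 did not pass. All 4 had at most 8 in a DMSO library, and several of their calls ended without 1 library. For Kcns3 the ET-3 call ended without either DMSO library or without the second ET-3 library (limma adjusted p of 0.103 to 0.123 after Benjamini-Hochberg correction). For Kcnh1 the NT call ended without the first DMSO library or without either NT library (0.0890 to 0.125), and with treated pairs averaged the calls of Kcnh1 ended in both comparisons (0.0762 under ET-3 and 0.130 under NT). For Kcnh5 the NT call ended without the second DMSO library, where the log2 fold change was 0.9978, and without the second NT library (adjusted p = 0.0631).

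Kcnf1 was abundant and changed little. It encodes Kv5.1, which forms no channel by itself and modifies other subunits, and had values of 700 and 705 in DMSO, 808 and 771 under ET-3, and 807 and 797 under NT. All 4 treated values lay above both DMSO values, by 0.17 and 0.19 on the log2 scale. Scaling each library to its total moved the median of all genes by 0.09 in the ET-3 comparison and by 0.11 in the NT comparison, so differences of this size depend on the scaling. Per exonic kilobase, the summed voltage-gated potassium level was 524 in DMSO, 447 under ET-3 and 450 under NT, of which Kcnf1 held 27.7% to 37.8% in a library.

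**Figure D3:**
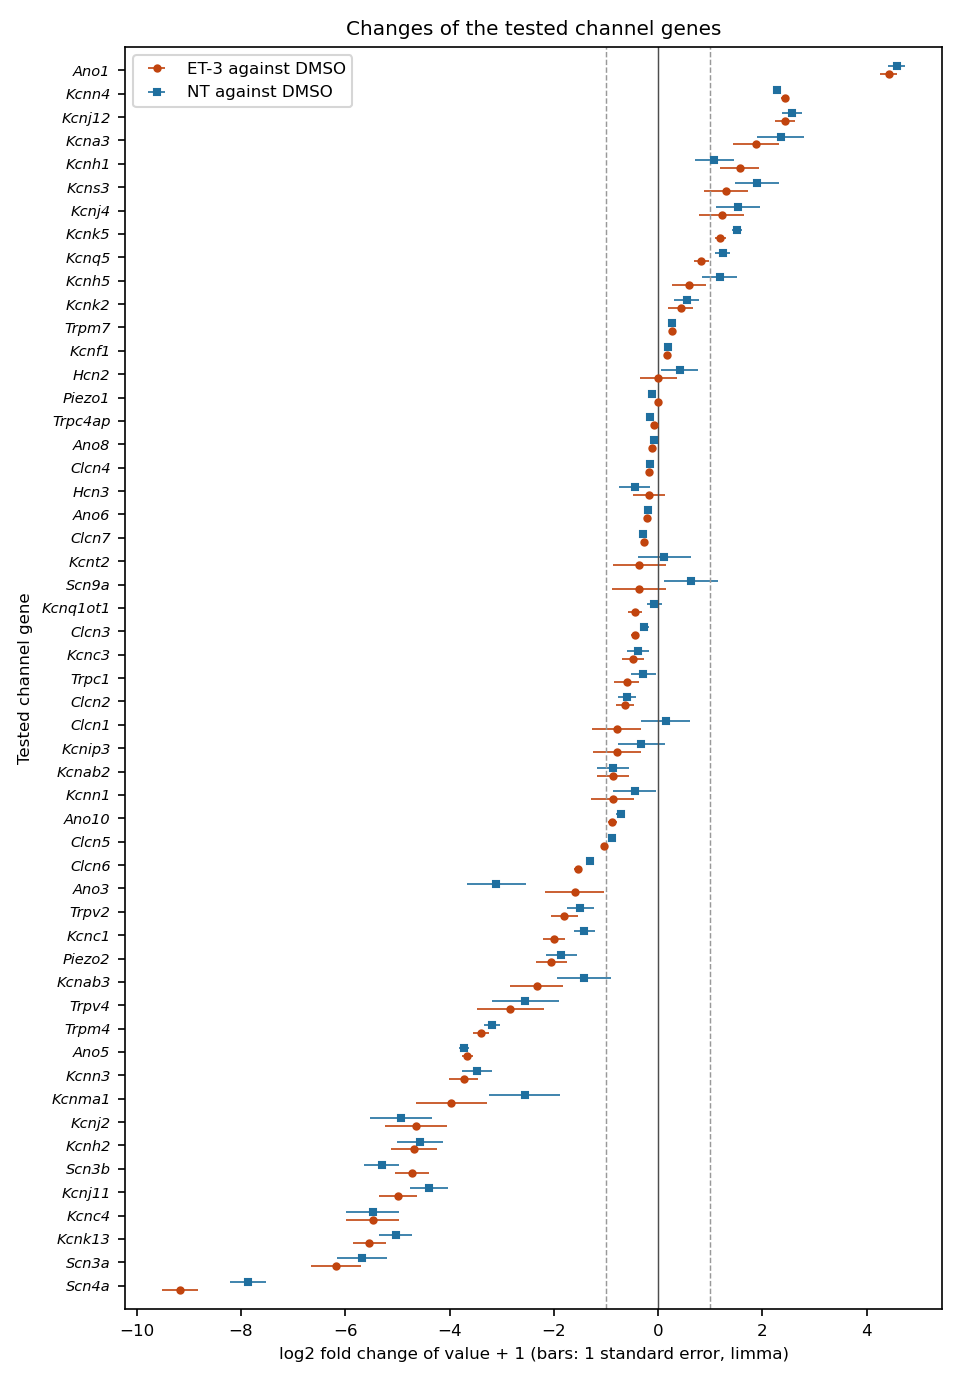
Log2 fold changes of value + 1 under ET-3 (circles) and NT (squares) against DMSO for 53 of the 57 tested channel genes, with bars of 1 standard error from limma and dashed lines at a 2-fold change. The values run from −9.17 for Scn4a under ET-3 to 4.58 for Ano1 under NT, and bars are widest for genes with few reads such as Kcnma1 and Trpv4.

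ClC chloride channels and exchangers fell by smaller factors from high levels. Clcn5, an endosomal chloride-proton exchanger, was the most abundant of them per exonic kilobase and had values of 2334 and 2403 in DMSO, 1127 and 1188 under ET-3, and 1324 and 1238 under NT. Its log2 fold changes of −1.03 ± 0.05 and −0.89 ± 0.05 lay on either side of the fold threshold, and the ET-3 call ended without the first ET-3 library (−0.99) and under both other scalings (−0.94 and −0.98). Clcn6, the exchanger of late endosomes, had values of 405 and 408 in DMSO, 139 and 140 under ET-3, and 158 and 169 under NT, and was 2.91-fold and 2.49-fold lower (limma adjusted p of 8.30e-08 and 2.69e-07, Benjamini-Hochberg correction). Clcn2, Clcn3 and Clcn7 passed the adjusted p without reaching the fold threshold, at −0.64 to −0.26 on the log2 scale. Clcn7 is the lysosomal exchanger and Clcn3 an endosomal one. Clcn1, the main chloride conductance of adult muscle fibers, was low in these cells, with values of 5 and 14 in DMSO, 4 and 5 under ET-3, and 9 and 10 under NT. It did not pass the test, although without the first DMSO library the ET-3 comparison was called (log2 fold change −1.45, limma adjusted p = 0.0128 with Benjamini-Hochberg correction). The summed ClC level per kilobase was 487 in DMSO, 293 under ET-3 and 313 under NT.

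Cation channels of the TRP and Piezo families contained decreases of differing size and abundant genes that barely moved. Trpm4, a calcium-activated channel for monovalent cations, had values of 373 and 336 in DMSO, 30 and 36 under ET-3, and 39 and 37 under NT, and was 10.7-fold and 9.33-fold lower (limma adjusted p of 4.58e-08 and 7.43e-08, Benjamini-Hochberg correction). Trpm7, a magnesium-permeable channel fused to a kinase, had values of 871 and 867 in DMSO and 1024 to 1077 in the treated libraries, higher by 0.26 and 0.27 on the log2 scale. Trpv2, a channel of muscle, neurons and immune cells, had values of 54 and 48 in DMSO, 12 and 16 under ET-3, and 17 and 18 under NT, at −1.80 ± 0.26 and −1.49 ± 0.26. Trpv4, which opens in swollen cells, had values of 11 and 16 in DMSO and 0, 3, 1 and 2 in the treated libraries. Trpv4 was 9-fold lower in both comparisons, with wide counting intervals of 2.38 to 40.4 under ET-3 and 2.82 to 32.3 under NT. Its calls ended without either DMSO library, with limma adjusted p of 0.0568 and 0.0853 for ET-3 and 0.0728 and 0.116 for NT after Benjamini-Hochberg correction, and the NT call also ended without the first NT library (0.0709) and with treated pairs averaged (0.0522). Trpc1, a partner of store-operated calcium entry, had values of 58 and 42 in DMSO, 37 and 28 under ET-3, and 37 and 44 under NT, and was not called.

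The 2 mechanically gated Piezo channels differed in level and in change. Piezo1 was the most abundant channel gene per exonic kilobase in every group, at 281 in DMSO, 280 under ET-3 and 259 under NT. Its values were 2730 and 2859 in DMSO, 2818 and 2742 under ET-3, and 2563 and 2574 under NT. The 95% intervals of its log2 fold change were −0.10 to 0.09 under ET-3 and −0.22 to −0.03 under NT, and 24.6% of its exonic bases overlap exons of another gene. Piezo2, the channel of touch and proprioception, had values of 85 and 72 in DMSO, 15 and 22 under ET-3, and 16 and 27 under NT. It was 4.24-fold and 3.65-fold lower, with limma adjusted p of 1.82e-04 and 3.66e-04 after Benjamini-Hochberg correction. Hcn2 and Hcn3, for pacemaker channels, were at 10 to 20 in every library and did not pass.

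**Figure D4:**
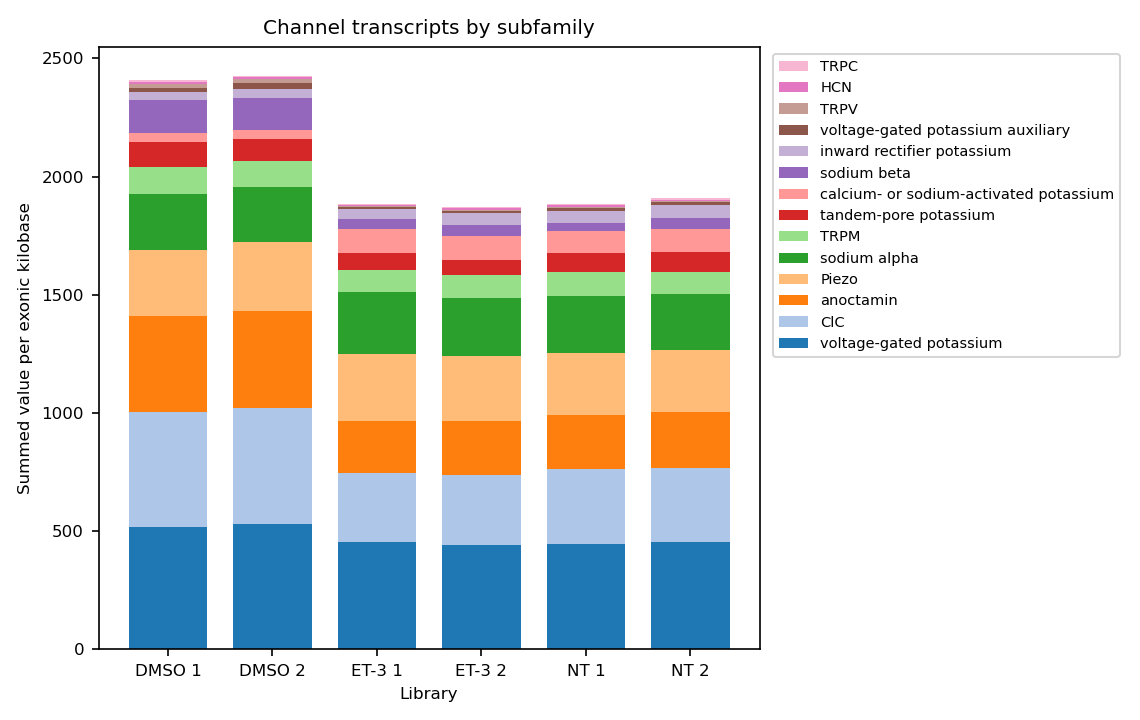
Stacked bars of the summed value per exonic kilobase of 14 channel subfamilies in each of the 6 libraries. ClC and anoctamin segments were shorter in the treated libraries, the calcium- or sodium-activated potassium segment was taller, and the Piezo segment kept nearly its size.

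The order of the abundant channel genes described here changed with treatment. Per exonic kilobase, the order in DMSO was Piezo1 at 281, Clcn5 at 207, Ano5 at 205 and Kcnf1 at 147, and the libraries of Clcn5 and Ano5 overlapped. Under ET-3 it was Piezo1 at 280, Kcnf1 at 165, Clcn5 at 101 and Kcnn4 at 97.4, and under NT it was Piezo1 at 259, Kcnf1 at 167, Clcn5 at 112 and Trpm7 at 92.8.

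The remaining 35 channel genes were below the filter, with no value above 15 in any library, and were not tested. In 13 of them both DMSO values were above all 4 treated values, a pattern held by 16.9% of the 5022 genes of the table below the filter, and in 2 the order was the reverse, against 6.41%. Kcna7, for a voltage-gated potassium channel of heart and skeletal muscle, had 11 and 6 in DMSO and 0 in every treated library. The heat-gated channels Trpv1 and Trpv3 had 6 and 15, and 5 and 7, in DMSO, and at most 1 in a treated library. These values are too small for a statement on single genes. Kcnk1 and Kcnab1 showed the reverse order, with at most 1 in DMSO and 1 to 6 in the treated libraries.

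NT and ET-3 could not be told apart at the channel genes by this test. None of the 57 tested genes was called between the 2 ligands, where 0.079% of all tested genes were. An unadjusted limma p under 0.05 was held by 11 of the 57, and by 2765 of all 13921 tested genes. With voom weights 1 channel gene passed the adjusted p, as did 898 of all tested genes. None of the channel genes was called once the fold threshold was added. The lowest limma adjusted p was 0.0784 for Scn4a, with values of 0 and 0 under ET-3 and 1 and 2 under NT, after Benjamini-Hochberg correction. The log2 fold changes of NT over ET-3 ran from −1.5 for Ano3, an anoctamin of neurons with values of 5 and 3 under ET-3 and 0 and 2 under NT, to 1.40 for Kcnma1. The 95% interval lay within a 2-fold change in either direction for 32 genes, among them Ano1 (−0.20 to 0.51), Ano5 (−0.29 to 0.17), Kcnj12 (−0.29 to 0.57) and Kcnk5 (0.10 to 0.54). For the remaining genes the interval reached a 2-fold difference. Ano3 itself was lower than in DMSO, where it had 12 and 16, and its ET-3 call ended when any 1 of the DMSO or ET-3 libraries was left out (limma adjusted p of 0.0724 to 0.196, Benjamini-Hochberg correction), whereas the NT call held in each such fit.

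Genes that work with these channels are given from 3 lists written from general knowledge, to be read against the 6.62% higher and 14.9% lower of all tested genes under ET-3, and the 7.3% and 13.2% under NT. Of 15 tested voltage-gated calcium channel subunits, 8 were lower under ET-3, and 6 were lower and 1 was higher under NT, with medians of −1.03 and −0.91. Cacna1s, the voltage sensor of excitation-contraction coupling, had values of 1774 and 1834 in DMSO and 0, 2, 0 and 1 in the treated libraries. Of 22 tested ion pumps, exchangers and cotransporters, 8 were called lower under ET-3 and 6 under NT, with medians of −0.32 and −0.28. Atp2a1, a calcium pump of the sarcoplasmic reticulum, had values of 2204 and 2502 in DMSO and 49 to 89 in the treated libraries. Its relatives Atp2a2 and Atp2a3 were not called. Atp2a2 had 2390 and 2590 in DMSO and 1923 to 2309 in the treated libraries, and Atp2a3 had 207 and 119 against 219 to 258. Of 27 tested scaffold and trafficking partners, 9 were lower and 2 higher in each comparison, with medians of −0.23 and −0.26. The 2 called higher were Ank3, for ankyrin-G, which anchors sodium channels, and Kctd12, an auxiliary subunit of GABA-B receptors. Cav3, for the caveolin of muscle, fell from 441 and 453 in DMSO to 5 to 18. Stim1, a sensor of store-operated calcium entry, fell from 445 and 446 to 131 to 162. Orai1, a pore of this entry, fell from 297 and 319 to 118 to 124. Their relatives in the list stayed under the fold threshold. Stim2 fell from 878 and 913 in DMSO to 568 to 586. Orai2 rose from 341 and 353 to 561 to 592, and Orai3 went from 83 and 91 to 106 to 118.

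Differentiation genes and some markers of other cells moved in the same libraries. Of 12 myogenic differentiation genes, 10 were lower in each comparison, with median log2 fold changes of −6.37 and −5.94, and Myod1 and Des were the 2 that were not called. Of 9 tested genes of the muscle stem cell state, 1 was called higher and 3 lower under ET-3, and 1 higher and 2 lower under NT. The gene called higher was Cd34. Cdh15 was lower in both comparisons, from 1547 and 1746 in DMSO to 436 to 496 in the treated libraries. Spry1 was likewise lower, from 269 and 292 to 119 to 137. Chrdl2 was called lower under ET-3 alone, at 23 and 19 in DMSO and 12 and 5 under ET-3. Pax7, Vcam1 and Sdc4 were higher by the adjusted p alone. Their log2 fold changes were 0.86, 0.50 and 0.62 under ET-3 and 0.76, 0.67 and 0.45 under NT. By the same measure Itga7 was lower, at −0.18 under ET-3 and −0.42 under NT, and so was Myf5 under NT, at −0.26. The 7 smooth muscle and pericyte markers in the table summed to 3202 to 3585 in DMSO, 808 to 868 under ET-3 and 948 to 991 under NT, and 4 of the 5 tested were lower in each comparison. Besides Abcc9, named above, these were Notch3, from 1397 and 1773 in DMSO to 284 to 409 in the treated libraries, Mcam, from 222 and 213 to 60 to 80, and Rgs5, from 117 and 150 to 2 to 5, while Myh11 and Kcnj8 had at most 4 in any library. The 5 fibroadipogenic markers summed to 222 to 228 in DMSO, 71 to 80 under ET-3 and 96 to 103 under NT. Col1a1 carried most of this fall, from 148 and 146 to 2 to 8, whereas Ly6a went from 27 and 18 in DMSO to 37 to 52 in the treated libraries and Pdgfra from 20 and 30 to 26 to 44. The 5 Schwann cell markers summed to 166 to 183 in DMSO and 644 to 715 in the treated libraries, nearly all of it Ngfr. The 6 endothelial markers summed to 22 to 36 in DMSO and 98 to 126 in the treated libraries, and of the 4 tested, 2 were higher under ET-3 and 3 under NT. Tek went from 2 and 1 in DMSO to 42 to 70, Kdr from 16 and 6 to 23 to 26 and Pecam1 from 6 and 3 to 7 to 15, with Pecam1 called under NT, and Cdh5 had at most 5. The 3 macrophage markers summed to 34 to 35 in DMSO, 21 to 45 under ET-3 and 27 to 28 under NT, and the 4 neuron markers to 759 in DMSO and 634 to 749 in the treated libraries, nearly all of it Tubb3. The part of differentiation or of other cells in the channel changes was not tested.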

How the data were processed

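Per the labels, RNA was taken from MuSCs after 5 days of culture. The labels name Trimmomatic 0.38, STAR 2.7.7a and featureCounts 1.6.5, and the study's methods describe other versions, trimming with Reaper, mm10 (GRCm38), and exon reads summed per gene without reads on several genes or regions. The labels and methods also name different library kits, so it is unknown whether counting used strand, and Kcnq1ot1 cannot be told apart from Kcnq1. The deposited table holds 1 column per library of a read signal, that is, counts the authors multiplied by a library factor and rounded. The factors fitted here ran from 0.781 to 1.19, giving 3628952 to 5396233 reads on genes. Whole numbers that such a factor skips were found in 3 libraries, and 0 genes lay at them.

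Values were used as deposited. limma 3.58.1 in R 4.3.3 (lmFit, contrasts, eBayes with trend) was fitted on log2(value + 1) over all 6 libraries in 1 fit, for the 13921 genes whose values averaged 5 or more, with Benjamini-Hochberg adjustment over all of them and a call at adjusted p of at most 0.05 and a 2-fold change. A fold change on this scale understates the change of genes with few reads. Ratios printed as fold are of mean values, their 95% intervals and the floor of 3 reads cover counting error only. Values per kilobase were divided by the GENCODE M21 exonic length, and coordinates are GRCm38. All 92 genes matched GENCODE M21, 90 with equal coordinates. Genes named are those called, those of the highest level in a subfamily, the largest changes under the fold threshold, and genes with a textbook role in muscle. The genes and lists were chosen with earlier results of these data known. The fit was tested on simulated data. Python 3.11.15 drew the plots. Some of the channel genes and markers are not reported here, although they enter the counts and sums. Kcna5, Scn4b, Trpc4 and Trpc6 were not analysed here. Alternatives covered scaling, pseudocount, filter, fold threshold, voom weights, a replicate block, averaged treated pairs and each library left out.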

Additional observations from a re-analysis of the deposited data

How the results depend on the processing

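Of 1260 comparisons of named genes under 14 other settings, 1183 kept their direction and call status, 59 lost and 4 gained a call, and 14 changed sign. Those counted as changed in sign include Hcn2 under ET-3, which had no direction in the main fit. Of 57 calls, 41 held under every setting, 19 with ET-3 and 22 with NT. Genes called higher with ET-3 numbered 5 with pseudocount 5, those higher with NT numbered 6 with treated pairs averaged, and those lower with NT numbered 32 by adjusted p alone. Without the filter on low values, 8 of the 92 channel genes were higher and 32 lower with ET-3, and 11 higher and 30 lower with NT. Of all 18943 genes, 1090 were then higher and 2683 lower with ET-3, and 1173 higher and 2324 lower with NT. With libraries left out in turn, 6 to 8 were higher and 19 to 22 lower with ET-3, and 7 to 10 higher and 18 to 21 lower with NT.

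The log2 fold changes that changed sign were not called. In the ET-3 comparison, Hcn2 had values of 10 and 13 in both groups, so the main fit gave it no direction. Its log2 fold change was 0.082 scaled to totals, 0.045 scaled to upper quartiles, 0.018 with voom, 0.01046 with averaged pairs, and −0.17 to 0.17 without single libraries. Piezo1 was 0.0819 and 0.042 under these scalings and −0.041 to 0.026 without single libraries. Scaled to totals, Trpc4ap was 0.017. In the NT comparison, Kcnq1ot1 was 0.043 scaled to totals and −0.17 to 0.029 without single libraries, and Clcn1 was −0.52 to 0.81 without single libraries. The cause was not tested.

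Differences between replicates correlated between groups at −0.01, −0.07 and −0.02 over 13921 genes. The treated pairs differed by about the sampling of reads, so these values cannot show whether replicate numbers paired the libraries. With the replicate block, 8 channel genes were higher and 22 lower with ET-3, 10 higher and 21 lower with NT, and 0 were called between NT and ET-3, as without it. Lone libraries in the fits that left one out were assumed to vary like the other groups.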

Other observations

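The values of some neighboring channel genes and partners are given here. Kcnj11 and Abcc8, for the pore and a receptor of the ATP-sensitive potassium channel, lie 3758 bases apart on chromosome 7, and both were lower in the treated libraries. The other such pair, Kcnj8 and Abcc9, lies 16247 bases apart on chromosome 6, where Abcc9 had values of 851 and 835 with DMSO and Kcnj8 had at most 2 in any library. Scn7a and Scn9a are separated by 38462 bases on chromosome 2, with Scn7a at 7 and 5 with DMSO and at most 1 in a treated library, and Scn9a at 16 and 6 with DMSO and 5 to 21 in the treated libraries. These pairs were chosen after their values were seen, and no test was made of their positions.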
